A study of Mus musculus with 20 samples.

Results

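In mouse retina, 9 secreted regulators that restrain blood vessel growth were described: Cnmd, Ism1, Thbs1, Thbs2, Serpinf1, Vash1, Timp3, Adamts1 and Sparc. They were picked by gene symbol from the deposited tables of FPKM, which are fragments scaled by transcript length and by the number of mapped fragments, and all 9 were found among 19716 genes listed in all. The choice was made with results of the oxygen-induced retinopathy (OIR) comparison of these libraries known, in which Cnmd and Ism1 were already seen to be low, so the members' values in that comparison are a description. Counts of members past a threshold stand there only beside the share of all genes. The data are bulk RNA-Seq of 20 retinas, 5 in each of 4 groups. In OIR, pups are kept in high oxygen, which stops retinal vessel growth, and are then returned to room air, where the retina becomes hypoxic and vessels grow abnormally.

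The first pair of groups was wild type (Atf6+/+) OIR and Atf6-/- OIR mice on a C57BL/6J background, kept in 75% oxygen from postnatal day 7 (P7) to P12 and collected at P17. Atf6 encodes a transcription factor of the unfolded protein response, the program that adjusts the protein folding capacity of the endoplasmic reticulum. The Atf6-/- mice carry a premature stop codon in the gene and, as the study describes them, make no ATF6 protein. The second pair was P30 wild type mice that were not given oxygen and received 1 µL in both eyes, either of 10 µM Ceapin-A7, a small molecule that blocks the activation of ATF6, or of saline with DMSO (labelled PBS), with retinas collected 1 day later. The study's methods give different DMSO concentrations for the Ceapin-A7 and saline solutions, so solvent and drug cannot be told apart. Mice of both sexes were used, and the labels do not name litters. The study does not say whether the retinas of a group all came from different mice. The p-values thus measure the spread between these retinas.

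Angiogenesis inhibitors are proteins that cells release into the matrix, where they act on endothelial cells or on the growth factors that drive them. Chondromodulin (encoded by Cnmd) is a membrane-anchored precursor whose cleaved part keeps cartilage free of vessels, and isthmin (Ism1) acts on endothelial cells through integrins and through the chaperone GRP78 (Hspa5) at the cell surface. Thrombospondins (Thbs1, Thbs2) bind CD36 and CD47, pigment epithelium-derived factor (Serpinf1) is released by the retinal pigment epithelium and Muller glia, vasohibin 1 (Vash1) is a tubulin-modifying enzyme made by endothelial cells, TIMP3 inhibits metalloproteinases and blocks the VEGF receptor KDR, ADAMTS1 is a metalloproteinase with thrombospondin repeats, and SPARC is a matrix protein that binds collagen and growth factors.

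Promoter windows show the sequence context, with Cnmd set beside Hspa5, the classical ATF6 target that is also the ISM1 receptor. Windows of 300 bases, from 250 before to 50 after the gene's start, were taken from the RefSeq table used here for 7 of the 9 members, all matched by gene number. Those of Ism1 and Thbs1 were not analysed here. The build of these windows is GRCm38.p6, whereas the authors aligned to GRCm39. The motifs searched on both strands were the endoplasmic reticulum stress element (ERSE, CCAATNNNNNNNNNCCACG), ERSE-II (ATTGG and CCACG with 1 base between them), the core of the unfolded protein response element (UPRE, TGACGTG), the hypoxia response core (ACGTG, contained in the UPRE core), the AP-1 site (TGANTCA) and the CCAAT box (CCAAT, contained in the ERSE). In the sequences below, capitals mark ERSE, ERSE-II, UPRE core, hypoxia core and AP-1 matches.
Cnmd, chr14:79662134-79662433, minus strand: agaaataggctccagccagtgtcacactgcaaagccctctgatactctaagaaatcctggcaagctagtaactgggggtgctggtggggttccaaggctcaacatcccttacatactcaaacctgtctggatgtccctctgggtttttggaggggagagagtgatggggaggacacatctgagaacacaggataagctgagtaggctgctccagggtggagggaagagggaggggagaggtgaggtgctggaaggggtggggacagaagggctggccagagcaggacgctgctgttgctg
Serpinf1, chr11:75422574-75422873, minus strand: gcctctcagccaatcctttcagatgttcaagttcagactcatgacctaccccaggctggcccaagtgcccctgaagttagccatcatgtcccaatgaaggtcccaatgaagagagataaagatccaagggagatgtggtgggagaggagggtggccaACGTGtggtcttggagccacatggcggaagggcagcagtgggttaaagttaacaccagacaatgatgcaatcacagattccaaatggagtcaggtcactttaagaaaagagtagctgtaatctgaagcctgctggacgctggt
Hspa5, chr2:34771840-34772139, plus strand: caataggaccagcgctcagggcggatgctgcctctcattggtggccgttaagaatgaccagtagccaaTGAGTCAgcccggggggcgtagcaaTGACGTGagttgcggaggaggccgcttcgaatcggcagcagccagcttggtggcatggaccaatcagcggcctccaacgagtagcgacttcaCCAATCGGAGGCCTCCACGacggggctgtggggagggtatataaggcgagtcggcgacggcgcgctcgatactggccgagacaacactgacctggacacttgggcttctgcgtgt

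Hspa5 held 1 ERSE, starting 65 bases before the start of the gene, 1 UPRE core and 1 AP-1 site. None of the 7 member windows held an ERSE, ERSE-II, UPRE core or AP-1 match, and Serpinf1 alone held a hypoxia core, starting 93 bases before its start. CCAAT boxes were found in Thbs2 (2) and Serpinf1 (3). Of 32851 RefSeq promoters of the same length, 0.119% held an ERSE, 0.0365% an ERSE-II, 2.01% a UPRE core, 19.6% a hypoxia core, 7.81% an AP-1 site and 37.4% a CCAAT box. ERSE and ERSE-II were so rare that their absence from 7 windows does not set the members apart from other promoters. These are matches of letters in this window and say nothing of factor binding.

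The libraries were of similar scale. FPKM summed to between 410599 and 456250, and between 2257 and 2619 genes were listed at 0. FPKM sums are not a depth, and the number of mapped fragments cannot be read from them, so intervals from counts were not computed. Atf6 itself was at 14.61 to 16.05 FPKM in Atf6+/+ OIR retinas and 13.57 to 16.83 in Atf6-/- OIR retinas. As the allele is a premature stop, gene-level FPKM does not check the genotype. The rod genes Sag and Gnat1 were at 1284.53 to 3638.13 and 3841.16 to 6862.52 FPKM over the 20 libraries. Several libraries stood apart. Saline replicates 4 and 5 had the lowest summed FPKM of 8 rod genes (14588 and 13671, against 18512 to 20620 in the other saline libraries). Atf6+/+ OIR replicate 1 had the highest sum of 15 immediate early genes (588, against 261.5 to 276.1 in the other Atf6+/+ libraries). Ceapin-A7 replicate 3 had the highest sum of 7 fibroblast genes (38.4, against 7.5 to 9.7). The lens gene Cryaa ran from 0 to 3973 FPKM among the 20 libraries, although whole retinas were collected for RNA. In bulk retina, fewer cells of a type and less RNA per cell cannot be told apart.

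Levels differed by orders of magnitude between members. FPKM is a per-length scale, so levels can be compared between genes. Sparc was the most abundant in every group, with a mean of 461 ± 42.3 FPKM (SD, n = 5) in Atf6+/+ OIR, and did not overlap with Timp3, the next, in any group. Timp3 and Vash1 followed, at group means of 24.8 to 26.7 and 16.97 to 19.92 FPKM, and overlapped each other in Atf6+/+ OIR and in Ceapin-A7 retinas. Serpinf1, Adamts1 and Cnmd lay in the middle, and their order differed between groups. Thbs1 was lower, at 1.03 to 4.02 FPKM, and Thbs2 and Ism1 were below 1 FPKM in all 20 libraries. The values are given to 2 decimals, which limits the precision of the 2 lowest genes.

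**Figure D1:**
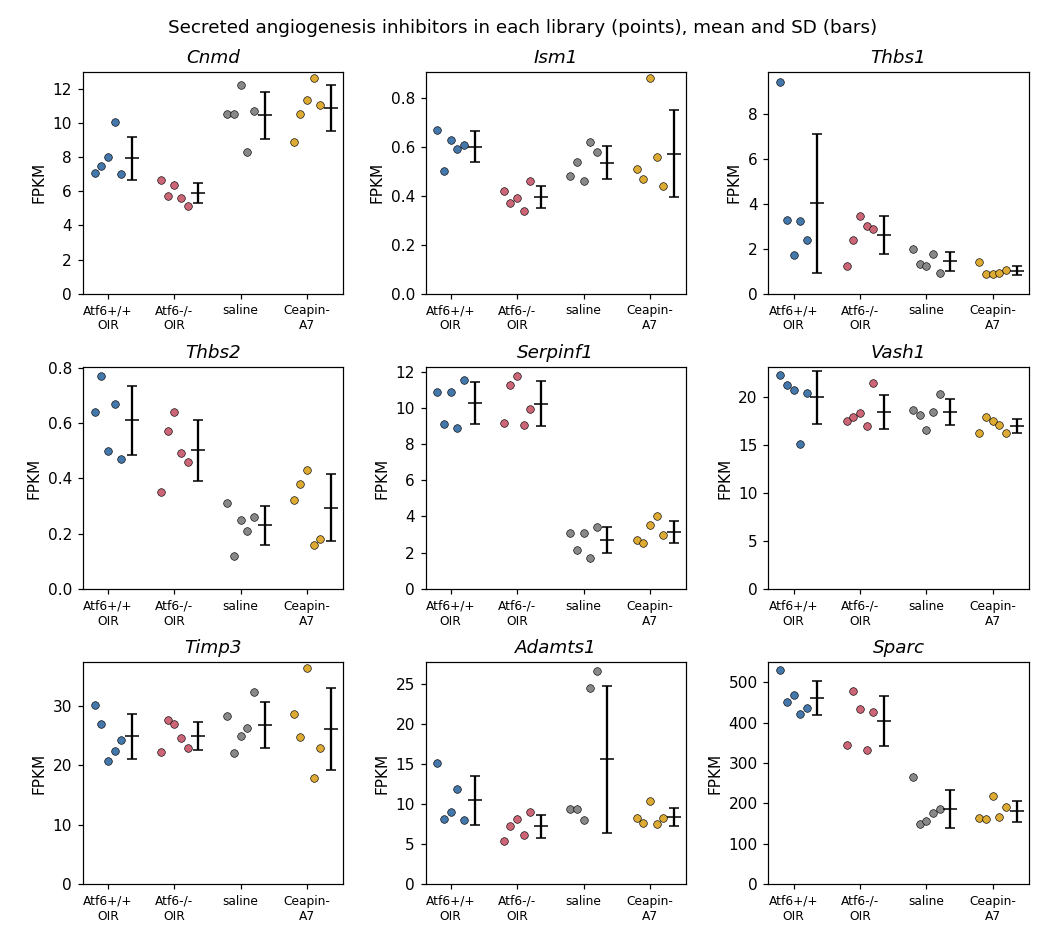
FPKM (linear axes from 0) of the 9 secreted angiogenesis inhibitors in the 4 groups, with a point for each library and a bar for the mean and SD of 5 libraries. Cnmd and Ism1 do not overlap between Atf6+/+ OIR and Atf6-/- OIR, Serpinf1 and Sparc are higher in P17 OIR retinas than in P30 retinas, and saline replicates 4 and 5 stand apart for Adamts1.

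Cnmd was lower in Atf6-/- OIR retinas. The 5 Atf6+/+ OIR libraries were at 7.07, 7.46, 8, 10.04 and 7.04 FPKM. The 5 Atf6-/- OIR libraries were at 6.64, 5.74, 6.38, 5.6 and 5.14 FPKM. All 5 knockout values lay below all 5 wild type values. The means were 7.92 ± 1.25 and 5.90 ± 0.607 FPKM (SD, n = 5), and the log2 fold change was -0.39 (SE 0.097), on the log2(FPKM + 0.1) scale as for all fold changes here.

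Ism1 was lower as well, at a far lower level. Its Atf6+/+ OIR libraries were at 0.67, 0.5, 0.63, 0.59 and 0.61 FPKM, and its Atf6-/- OIR libraries at 0.42, 0.37, 0.39, 0.34 and 0.46 FPKM. The groups did not overlap. The log2 fold change was -0.48 (SE 0.14). The pseudocount mattered at this level: with 1 in place of 0.1, it was -0.19.

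Of the metalloproteinase and its inhibitor, Adamts1 was lower on average but overlapped. Its values were 15.11, 8.16, 9.05, 11.94 and 8.01 FPKM in Atf6+/+ OIR and 5.39, 7.29, 8.13, 6.15 and 9.06 in Atf6-/- OIR, with a log2 fold change of -0.49 (SE 0.19). The highest value was that of Atf6+/+ OIR replicate 1, the library with the most immediate early RNA. Without that library the log2 fold change of Adamts1 was -0.34 (SE 0.16), and without Atf6-/- OIR replicate 5 it was -0.60 (SE 0.18). Timp3 was at 30.14, 26.94, 20.63, 22.37 and 24.15 FPKM in Atf6+/+ OIR and 22.21, 27.62, 26.84, 24.5 and 22.94 in Atf6-/- OIR, a log2 fold change of 0.02 (SE 0.11), with groups that overlapped throughout.

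The thrombospondins overlapped between genotypes. Thbs1 was at 9.44, 3.29, 1.74, 3.23 and 2.38 FPKM in Atf6+/+ OIR and 1.25, 2.4, 3.44, 3.02 and 2.89 in Atf6-/- OIR. Its log2 fold change of -0.41 (SE 0.39) rested on Atf6+/+ OIR replicate 1, and was -0.04 without it. Thbs2 was at 0.64, 0.77, 0.5, 0.67 and 0.47 FPKM in Atf6+/+ OIR and 0.35, 0.57, 0.64, 0.49 and 0.46 in Atf6-/- OIR, with a log2 fold change of -0.23 (SE 0.17).

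The remaining 3 members also overlapped. Serpinf1 was at 10.89, 9.13, 10.87, 8.9 and 11.55 FPKM in Atf6+/+ OIR and 9.18, 11.27, 11.75, 9.03 and 9.92 in Atf6-/- OIR, a log2 fold change of 0.01 (SE 0.10). Vash1 was at 22.24, 21.21, 20.66, 15.11 and 20.4 FPKM and at 17.46, 17.84, 18.26, 16.98 and 21.41 FPKM, in the same order of groups, a log2 fold change of -0.09 (SE 0.12). Each Vash1 group held a library far from the others, at 15.11 in Atf6+/+ OIR and 21.41 in Atf6-/- OIR. Sparc was at 529.93, 451.34, 467.71, 420.28 and 436.6 FPKM and at 345.09, 477.79, 433, 332.54 and 425.3 FPKM, a log2 fold change of -0.19 (SE 0.11). Its lowest 2 knockout libraries, replicates 1 and 4, lay below the Atf6+/+ range.

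Across the 9 members, 7 log2 fold changes were negative, with a median of -0.23, beside a median of 0.00 over the 15704 genes tested. The 2 positive ones, near 0, changed sign with the library left out, Serpinf1 running from -0.051 to 0.063 and Timp3 from -0.044 to 0.104. Vash1 was at -0.20 without Atf6+/+ OIR replicate 4, -0.16 without Atf6-/- OIR replicate 5 and -0.04 without Atf6+/+ OIR replicate 1. At an adjusted p under 0.05 (limma, Benjamini-Hochberg), 0 of the 9 members and 0.0318% of all genes were called. At an unadjusted p of 0.05 or less, 3 members (Cnmd, Ism1 and Adamts1) and 5.81% of all genes were lower, and 0 members and 6.94% of all genes were higher. Groups did not overlap, with the knockout lower, for 2 members (Cnmd, Ism1) and for 0.694% of all genes. As these members were chosen with this comparison in view, the counts are no test of them and nothing is read from them.

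Markers of vessels and of other tissues moved in the same comparison. By the same unadjusted threshold, 5 of 13 endothelial genes and 5 of 10 mural genes were lower, and none of either list was higher. The summed FPKM of the mural genes was 106.1 to 157.5 in Atf6+/+ OIR and 85.9 to 111 in Atf6-/- OIR, and that of the endothelial genes 137.7 to 206.8 and 123.9 to 174.1. Pecam1 and Pdgfrb, which define these cells, were detected in every library. Of the pigment epithelium list, 5 of 12 genes were higher, with sums of 24.9 to 140.1 and 92.5 to 327.8, and of the lens list 13 of 15 tested were lower, with sums of 10.2 to 911.4 and 6.2 to 10.3, Cryaa being listed at 0 in 2 Atf6-/- libraries. Fold changes of all genes also ran with transcript GC content (Spearman rank correlation -0.464 across genes, which are not independent). With a correction for it, Cnmd was at -0.42 and Ism1 at -0.45, whereas Vash1 went from -0.09 to 0.08. The part of these cell types in the members' values was not tested.

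Ceapin-A7 was compared with saline in separate animals, which shows how the same genes stood 1 day after injection in P30 retina. Whether ATF6 activation was blocked in these retinas was not tested here. No member passed the test across all genes, and the groups of every member overlapped. Cnmd was at 10.52, 10.52, 12.21, 8.3 and 10.68 FPKM after saline and 8.89, 10.52, 11.32, 12.62 and 11.03 after Ceapin-A7. The log2 fold change of Cnmd was 0.06 (95% interval -0.18 to 0.30, limma adjusted p = 0.851). Ism1 was at 0.48, 0.54, 0.46, 0.62 and 0.58 FPKM after saline and 0.51, 0.47, 0.88, 0.56 and 0.44 after Ceapin-A7, a log2 fold change of 0.05 (-0.32 to 0.43, limma adjusted p = 0.927). The Ism1 value of 0.88 came from Ceapin-A7 replicate 3, the library with the most fibroblast RNA, without which the fold change was -0.09. The P17 and P30 comparisons differ in age, oxygen and injection, and the difference between their effects was not tested.

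Adamts1 gave the largest difference of the members after Ceapin-A7. It was at 9.35, 9.42, 8.06, 24.5 and 26.66 FPKM after saline and 8.25, 7.61, 10.38, 7.46 and 8.21 after Ceapin-A7. Saline replicates 4 and 5 were more than 14 FPKM above every other P30 library, and the other 3 saline libraries lay within the Ceapin-A7 range. The log2 fold change was -0.70 (95% interval -1.39 to -0.02, limma unadjusted p = 0.0457, adjusted p = 0.479). The exact two-sided permutation test over the libraries gave p = 0.0952, and without saline replicates 4 and 5 the log2 fold change was -0.12 (limma unadjusted p = 0.306, adjusted p = 0.991). Over all alternatives its limma adjusted p ran from 0.262 to 0.991, and 11 of 24 alternatives had an unadjusted p of 0.05 or less.

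Thbs1 and Vash1 had lower means by smaller amounts, and both were just over an unadjusted p of 0.05 (limma, 0.0524 and 0.0541). Thbs1 was at 1.99, 1.31, 1.23, 1.75 and 0.93 FPKM after saline and 1.39, 0.88, 0.88, 0.93 and 1.05 after Ceapin-A7. Its log2 fold change was -0.43 (-0.86 to 0.0053, limma adjusted p = 0.481), and its exact permutation p was 0.111. For Thbs1, 8 of 24 alternatives had an unadjusted p of 0.05 or less, among them TPM, quantile normalization, array weights and leaving out saline replicate 5. Without saline replicates 4 and 5 its log2 fold change was -0.52 (limma unadjusted p = 0.0236, adjusted p = 0.991), larger than that of any other member there. No alternative took its adjusted p below 0.338. Vash1 was at 18.63, 18.1, 16.49, 18.38 and 20.29 FPKM and at 16.17, 17.88, 17.51, 17.05 and 16.23 FPKM, a log2 fold change of -0.11 (-0.23 to 0.0024, limma adjusted p = 0.481), with 4 of 24 alternatives at an unadjusted p of 0.05 or less.

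The other 4 members had intervals on both sides of 0. Thbs2 was at 0.31, 0.12, 0.25, 0.21 and 0.26 FPKM after saline and 0.32, 0.38, 0.43, 0.16 and 0.18 after Ceapin-A7, with a log2 fold change of 0.23 (-0.32 to 0.78). Serpinf1 was at 3.09, 2.17, 3.09, 1.71 and 3.39 FPKM and at 2.7, 2.56, 3.51, 4.04 and 3 FPKM, with 0.25 (-0.16 to 0.66) on the log2 scale. Both means were higher after Ceapin-A7, within overlapping groups. Thbs2 was at 0.096 without saline replicate 2, and Serpinf1 at 0.097 without saline replicate 4. Timp3 was at 28.3, 22.01, 24.87, 26.15 and 32.25 FPKM and at 28.52, 24.65, 36.36, 17.87 and 22.93 FPKM, a log2 fold change of -0.06 (-0.42 to 0.29). Sparc was at 264.26, 147.76, 157.09, 175.24 and 185.22 FPKM and at 163.26, 160.38, 218.52, 165.68 and 190.88 FPKM, a log2 fold change of -0.03 (-0.34 to 0.29).

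At an adjusted p under 0.05, 0 of 9 members and 0% of the 15408 genes tested were called by limma. At an unadjusted p of 0.05 or less, 1 member (Adamts1) and 5.31% of all genes were lower, and 0 members and 5.04% of all genes were higher. No member had groups that did not overlap with Ceapin-A7 lower, beside 0.688% of all genes. The median log2 fold change was -0.03 over the members and 0.00 over all genes.

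**Figure D2:**
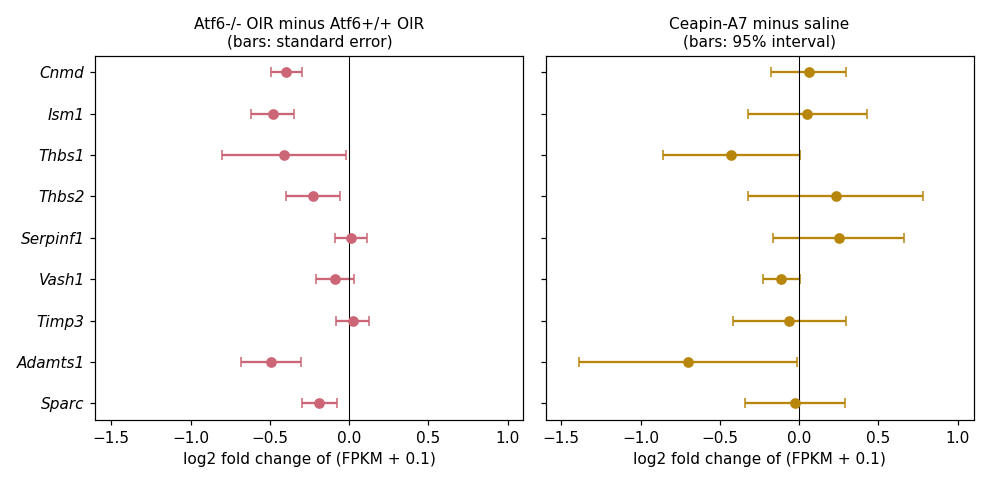
Log2 fold change of (FPKM + 0.1) for the 9 members, with Atf6-/- OIR minus Atf6+/+ OIR on the left (bars are standard errors, given as a description) and Ceapin-A7 minus saline on the right (bars are 95% intervals). On the left Cnmd, Ism1 and Adamts1 lie furthest below 0 relative to their errors, and on the right only the interval of Adamts1 leaves out 0, at an adjusted p of 0.479.

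Within groups, Adamts1 varied together with the rod and immediate early lists. The 20 libraries were each centred on their own group. The log2 level of Adamts1 had a Pearson r of -0.888 with the mean of the rod list and 0.799 with the immediate early list. Without the 2 libraries farthest from each list's own median, r was -0.786 and 0.774. In saline replicates 4 and 5, the summed immediate early FPKM was 342 and 305.1, against 183.1 to 261.2 in the other 3, and Atf3 was at 28.56 and 20.72 FPKM, against 4.86 to 6.4. Glul, a Muller glia gene, was at 253.99 and 330.2 FPKM there, against 624.1 to 1024. Other genes of these lists did not stand apart in this way. Fos was at 22.93 and 30.29 FPKM in saline replicates 4 and 5, against 14.14 to 26.07. Rlbp1, also a Muller glia gene, was at 121.05 and 190.8 FPKM, against 144.11 to 215.08. After Ceapin-A7, 9 of 15 immediate early genes were lower by the unadjusted threshold, and 0 were higher. All 8 rod genes had higher means after Ceapin-A7, and 1 of them (Sag) was higher by that threshold. In Atf6-/- OIR all 8 rod genes also had positive log2 fold changes, 2 of them by that threshold. There, 13 of 15 immediate early genes had negative ones, 1 of them by that threshold. The part of these lists in the Adamts1 result was not tested.

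**Figure D3:**
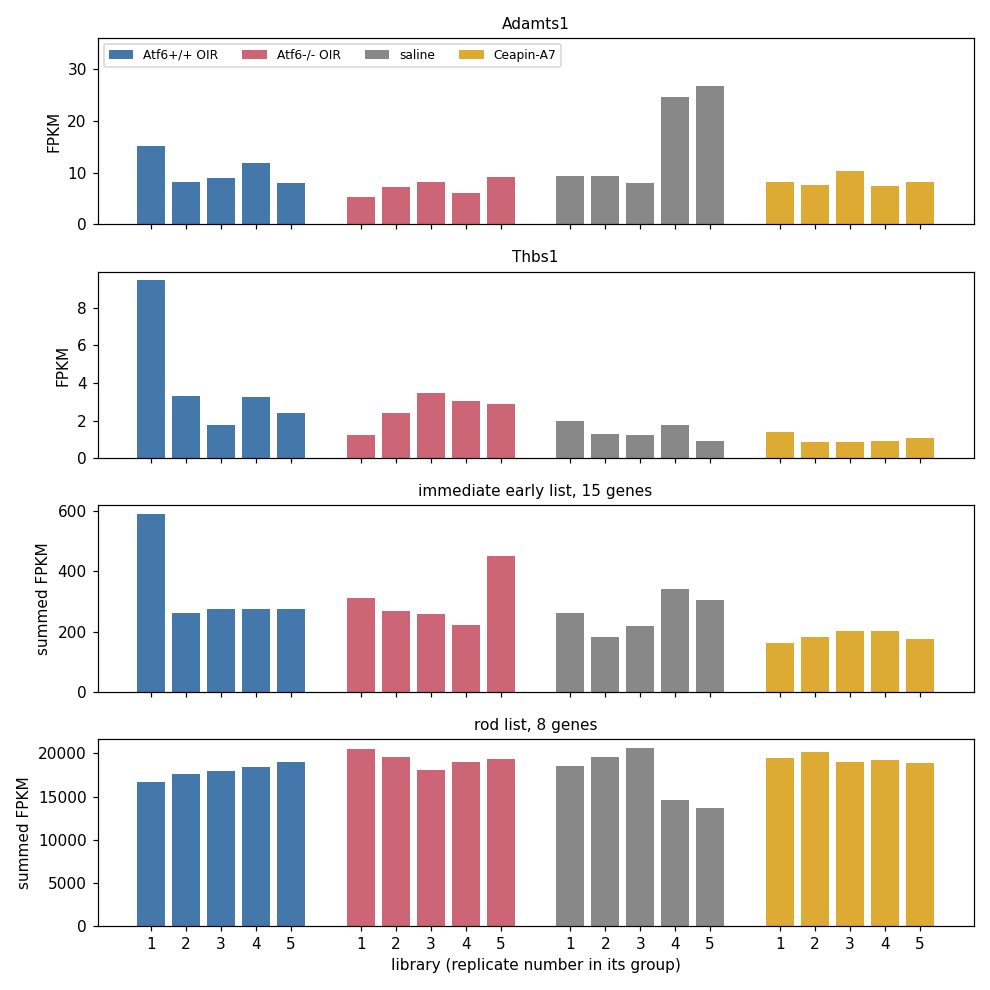
FPKM of Adamts1 and Thbs1, and summed FPKM of the immediate early list (15 genes) and the rod list (8 genes), as 1 bar per library in the 4 groups. Saline replicates 4 and 5 are high for Adamts1 (24.5 and 26.66) and low for rod genes (14588 and 13671), and Atf6+/+ OIR replicate 1 is high for Thbs1 (9.44) and immediate early genes (588).

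Many genes did not overlap between the P17 OIR and P30 retinas, among them the members Serpinf1 and Sparc. Nothing particular to these members is read from it. All 10 P17 libraries were above all 10 P30 libraries for both genes, as for 13.4% of all genes, and 14.5% of all genes lay below. Serpinf1 ran from 8.9 to 11.75 FPKM at P17 and from 1.71 to 4.04 at P30. Sparc ran from 332.54 to 529.93 FPKM at P17 and from 147.76 to 264.26 at P30. The other 7 members overlapped between the ages. Cnmd lay the other way, with a mean of 6.91 ± 1.41 FPKM (SD, n = 10) at P17 and 10.7 ± 1.32 at P30. The P17 mean includes the Atf6-/- libraries. In Atf6+/+ OIR alone the mean was 7.92 ± 1.25 FPKM (SD, n = 5), against 10.45 ± 1.395 after saline. Age, oxygen and injection cannot be told apart here, all P30 mice were wild type, and no test was made.

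The members did not vary as 1 group. Of 36 pairs, 2 had a Pearson r over 0.5 across the 20 group-centred libraries, which share their preparation: Thbs2 with Timp3 (0.762, and 0.66 without the 2 farthest libraries) and Timp3 with Sparc (0.533, and 0.471). In 10 pairs r was below 0, the lowest being Cnmd with Vash1 (-0.476, and -0.377 without the 2 farthest). For that pair r was -0.766 among the OIR libraries and -0.096 among the P30 libraries. The 2 farthest libraries were those farthest from the median of the first gene of a pair, or of the marker list. They can thus differ from value to value. Sparc ran with the mural (0.723) and endothelial (0.62) lists, at 0.732 and 0.604 without the 2 farthest libraries of each list. Without the 2 farthest libraries of the list, its r with the fibroblast list fell from 0.709 to 0.429. That of Vash1 with the endothelial list fell from 0.742 to 0.522. Cnmd ran with the microglia and macrophage list (0.713; 0.684 without the 2 farthest libraries). The r of Ism1 with the mural list (0.66) was 0.213 without the 2 farthest libraries, and that of Serpinf1 with the Muller glia list (0.613) was 0.299.

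**Figure D4:**
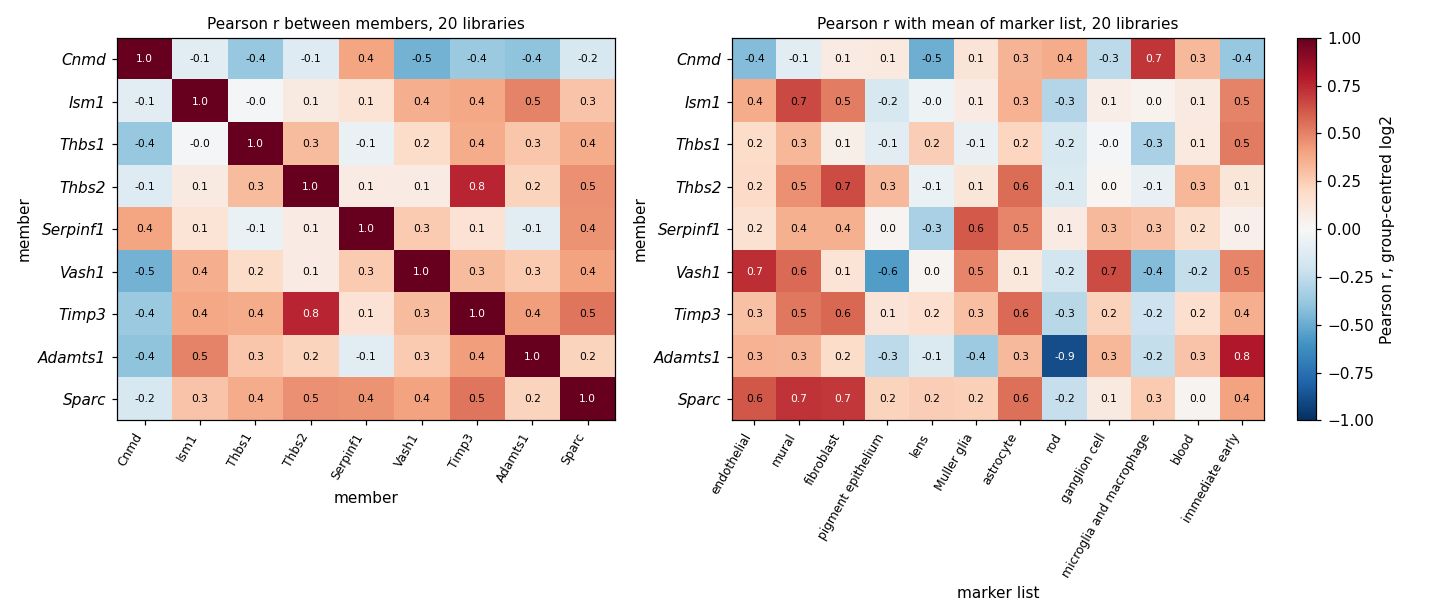
Pearson r of group-centred log2 values over 20 libraries, between the 9 members (left) and between members and the mean of each marker list (right), with red for positive and blue for negative r. Adamts1 is most strongly opposed to the rod list (-0.888), and the lowest r between members is that of Cnmd with Vash1 (-0.476).

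Among 12434 genes with a mean of at least 1 FPKM in every group, those most like each member in group-centred level over 20 libraries were as follows. Adamts1 was closest to Arid5a (r = 0.961), Eif4ebp1 (0.951) and Nes (0.95), Nes being a gene of immature and reactive glia. Vash1 was closest to Brd2 (0.942), Gna12 (0.938) and Cmip (0.938). Thbs1 was closest to Apold1 (0.86), Edn1 (0.848) and Rasal2 (0.796), of which Edn1 encodes the vasoconstrictor endothelin 1. Thbs2 was closest to Ltbp1 (0.877), Angptl2 (0.833) and Niban1 (0.82), and Sparc to Htra1 (0.871), Nxn (0.871) and Crtap (0.858). Timp3 was closest to Prrg3 (0.838), Ccnd2 (0.806) and Msrb3 (0.804). Cnmd was closest to Mrpl28 (0.825), Oxnad1 (0.817) and Pigf (0.816), Ism1 to Abi3 (0.773) and Sae1 (0.764), and Serpinf1 to Begain (0.762), 1810010H24Rik (0.728) and Lrrtm1 (0.717). Without the 2 libraries farthest from the member's median, r was lower for every gene named except Abi3 (0.784). In the order given, it was 0.929, 0.909 and 0.909 for Adamts1, and 0.852, 0.894 and 0.874 for Vash1. It was 0.716, 0.618 and 0.598 for Thbs1, 0.802, 0.746 and 0.712 for Thbs2, and 0.847, 0.752 and 0.744 for Sparc. For Timp3 it was 0.768, 0.634 and 0.716, for Cnmd 0.763, 0.728 and 0.779, for Sae1 0.749, and for Serpinf1 0.735, 0.594 and 0.69.

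Of the relatives of the members, 17 of 19 genes were tested in each comparison and none was called at an adjusted p under 0.05 by limma. In OIR, Ism2 (log2 fold change 0.54) and Thbs4 (0.83) were higher in Atf6-/- retinas and Adamts8 (-0.50) lower by the unadjusted threshold. The groups of each overlapped. Adamts8 had means of 0.25 FPKM in Atf6+/+ OIR and 0.138 in Atf6-/- OIR, close to the pseudocount of 0.1. Thbs3 was lower after Ceapin-A7 (-0.27). The most abundant relatives, Sparcl1, Timp2 and Smoc1, had means of 110, 39.8 and 6.87 FPKM over the 20 libraries.

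Receptors and partners were all tested, 20 of 20, and none was called. In OIR, Lrp6 (0.16) was higher and Mmp14 (-0.49), Itgb3 (-0.74) and Plxdc1 (-0.27) were lower in Atf6-/- retinas by that threshold. MMP14 is a membrane metalloproteinase that TIMP3 inhibits, and PLXDC1 is a receptor of pigment epithelium-derived factor. After Ceapin-A7, Itgav (-0.20) and Mmp2 (-0.42) were lower, and for both the highest 2 values were those of saline replicates 4 and 5. Hspa5 was at 106.69 to 158.61 FPKM in Atf6+/+ OIR and 111.95 to 122.36 in Atf6-/- OIR, a log2 fold change of -0.17 (SE 0.089), and -0.10 (SE 0.10) after Ceapin-A7. Rpsa and Kdr, the other 2 most abundant, had means of 288 and 35.7 FPKM over the 20 libraries.

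Of 16 other secreted inhibitors, 11 were tested in each comparison and none was called. In OIR, Cxcl10 (-1.48) and Col15a1 (-0.73) were lower in Atf6-/- retinas by that threshold, Col15a1 encoding a basement membrane collagen whose fragment inhibits vessel growth. Cxcl10 was at 2.53, 0.67, 5.58, 0.89 and 0.29 FPKM in Atf6+/+ OIR and 0.24, 0.62, 0.53, 0.1 and 0.7 in Atf6-/- OIR. The groups of both genes overlapped. After Ceapin-A7, Pf4 (1.82, listed at 0 in 2 saline libraries) and Dcn (2.202) were higher and Sema3f (-0.26) was lower. Dcn, a fibroblast marker, was at 21.02 FPKM in Ceapin-A7 replicate 3 and at 1.67 to 2.93 in the other 4, against 0.15 to 2.89 after saline. Sema3f, Igfbp4 and Col18a1 were the most abundant, with means of 62.7, 18.2 and 15.8 FPKM over the 20 libraries.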

How the data were processed

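RNA-Seq of 20 whole mouse retinas was used, 5 per group as the labels give them. The authors made stranded mRNA libraries (DNBSEQ, paired-end), aligned reads to GRCm39 with HISAT2 (2.0.4), estimated expression with RSEM (1.2.18) and deposited FPKM per gene to 2 decimals. Their own tests used DESeq2 (1.4.5) on counts, which FPKM do not allow. The depth behind each value is unknown.

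Each experiment was fitted on its own 10 libraries. The FPKM values were divided by median-of-ratios factors, log2(FPKM + 0.1) was compared by limma (version 3.58.1, eBayes with trend, R version 4.3.3) for genes with a mean FPKM above 0.1, and p-values were adjusted by Benjamini-Hochberg over all genes tested. The test was checked on simulated data. Transcript GC content came from a GRCm38 annotation by symbol, with a value for 97% of genes in OIR and 97.1% after Ceapin-A7. Promoter windows are from RefSeq (GRCm38.p6).

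Genes named are the 9 members, genes of the lists of relatives, of receptors and partners and of other secreted inhibitors with an unadjusted p of 0.05 or less or among the 3 highest means, and the 3 genes most like each member, of which 1 for Ism1 is not reported here. Of marker lists, sums and defining genes are given. Members and lists were chosen with earlier results of these data known. Replicate numbers did not pair the libraries (same-number r from -0.258 to 0.31), so no block was used. Alternatives were other pseudocounts, filters, scalings and variance models, a fit of all 20 libraries, a replicate block and leaving out each library; a GC correction and leaving out saline replicates 4 and 5 or Atf6+/+ OIR replicates 2 and 5 together were chosen after seeing the data.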

Additional observations from a re-analysis of the deposited data

Results flagged for a closer look

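In 5 of 36 sets of 5 libraries, 1 library's gap to its nearest neighbour was over 0.71 of the range of its group, which chance gives for about 1 in 20 sets. For Thbs1 this was Atf6+/+ OIR replicate 1, at 9.44 FPKM. For Vash1 it was Atf6+/+ OIR replicate 4, at 15.11 FPKM, and Atf6-/- OIR replicate 5, at 21.41 FPKM. For Ism1 and Adamts1 it was Ceapin-A7 replicate 3, at 0.88 and 10.38 FPKM. Saline replicates 4 and 5, which are high together for Adamts1, were not picked out by this gap, which is measured for 1 library.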

How the results depend on the processing

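The limits of these values are the 5 libraries per group, FPKM without counts and the libraries that stand apart. In OIR, array weights gave 2769 genes at an adjusted p under 0.05 in place of 5, with 2 of the 9 members in place of 0, 5749 genes at an unadjusted p of 0.05 or less in place of 2002, and 5 members in place of 3. As the members were chosen on this comparison, those counts are no test of them. The fit of all 20 libraries gave 11 genes in place of 5 in OIR and 1 in place of 0 after Ceapin-A7. Leaving out a library gave 5 to 9 genes (9 without Atf6-/- replicate 5) at the adjusted threshold in OIR, and 1092 (without Atf6-/- replicate 4) to 4011 (without Atf6-/- replicate 5) at the unadjusted one (1301 without Atf6+/+ replicate 1, 3762 without Atf6+/+ replicate 4), with 2 to 4 members. After Ceapin-A7 it gave 956 (without saline replicate 4) to 2529 (without saline replicate 2) genes in place of 1595, with 0 (without saline replicate 4 or Ceapin-A7 replicate 4 or 5) to 2 members (without saline replicate 3) in place of 1, and leaving out saline replicates 4 and 5 together gave 769 genes. Members at an unadjusted p of 0.05 or less after Ceapin-A7 were 0 with FPKM as deposited or without trend, 2 with quantile normalization or the GC correction, and 3 with TPM. Of the 15408 genes tested, 1539 were at that threshold with FPKM as deposited and 1429 without trend. There were 1595 with quantile normalization, 1676 with the GC correction and 1704 with TPM. The cause was not tested.

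With a replicate block, 5 genes in OIR and 0 after Ceapin-A7 had an adjusted p under 0.05, 1969 and 1606 an unadjusted p of 0.05 or less, with 2 and 1 members, and no member was called at the adjusted threshold. The block left Adamts1 out of the members at the unadjusted threshold in both experiments, and after Ceapin-A7 the 1 member was Thbs1 in place of Adamts1. By exact permutation test, Adamts1 after Ceapin-A7 (log2 fold change -0.70) had p = 0.0952.

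The 4 members nearest 0 after Ceapin-A7 changed sign when libraries were left out, none called in any fit. Leaving out 1 library in turn, Cnmd ran from -0.026 to 0.125, Ism1 from -0.093 to 0.123, Timp3 from -0.192 to 0.067 and Sparc from -0.10 to 0.11. Without saline replicates 4 and 5 together, Cnmd was at -0.050 and Timp3 at 0.0073. Mean FPKM above 1 removed Ism1 and Thbs2, so no value was had for them there.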
